A study of Drosophila melanogaster with 20 samples.

Results

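The proteasome subunit genes of Drosophila melanogaster were followed across brain and fat body of female flies on normal food or a high sugar diet. Members were taken by gene symbol from all 20 deposited tables: symbols that begin with Pros and a digit, with Prosalpha or Prosbeta, or with Rpn or Rpt and a digit, and Mov34. This gave 43 entries, of which the 2 entries named Prosalpha1 share 1 symbol and were dropped, leaving 41 of 13972 genes. The 41 comprised 28 genes of the general proteasome, made up of 12 genes of the 20S core (6 alpha ring, 6 beta ring) and 16 of the 19S cap (8 base, 8 lid), together with 13 duplicate genes. All groups were wild-type (WT) Oregon-R flies listed at 5 days of age and 5 days on their food. The 4 groups of 5 libraries were brain and fat body on the normal food diet (ND) and brain and fat body on the high sugar diet (HSD). How many flies gave each library, and whether the 5 libraries of a group came from separate flies, is not stated in the sources used here, so the p-values below measure the spread between these libraries.

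The 26S proteasome degrades proteins that carry ubiquitin chains. Its barrel, the 20S core, stacks outer rings of alpha subunits, which gate the entrance, on inner rings of beta subunits, among which Prosbeta1, Prosbeta2 and Prosbeta5 carry the caspase-like, trypsin-like and chymotrypsin-like active sites. The 19S cap has a base, whose Rpt subunits are ATPases that unfold the substrate, and a lid, whose Rpn11 cuts off the ubiquitin chain. In flies, as in mammals, subunit genes can be raised together by the Cap'n'collar factor (cnc), and several subunits have a second copy known mainly from the male germ line.

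Depth and sample identity bear on what follows. Reads recovered from the RPKM values (reads scaled to exon length and to library size) came to 21.7 to 46.3 M per brain library and 5.50 to 39.4 M per fat body library. Neuron markers summed to 1414 to 2046 RPKM in the brain libraries and to at most 8.89 RPKM in the fat body libraries. The fat body libraries carried 38267 to 162180 RPKM of fat body markers, the brain libraries 812 to 10559.5. Yp1, Yp2 and Yp3 made up most of the fat body sums. Of the 9 markers found, Cyp28d1 was higher in every brain library (501 to 768 RPKM) than in every fat body library (146 to 400 RPKM). It stood at 555 RPKM in brain HSD 3, which had the lowest sum. Fbp1 and Fbp2 were below 1 RPKM in all libraries. Brain ND 5 had the highest fat body marker sum among the brain libraries and the lowest neuron marker sum. Fat body ND 4, ND 5 and HSD 4 listed only 325, 102 and 414 genes at 1 to 3 reads, against 1120 to 1262 in the other fat body libraries. Markers of the ovary were read in fat body as well: the sum of the germline markers ran from 26.45 (HSD 1) to 476 RPKM and that of 10 eggshell markers from 23.7 (HSD 1) to 12479 RPKM (ND 4), against at most 18.2 and 5.92 RPKM in brain. Most of the germline sum in each brain library was aret, at 9.76 to 14.7 RPKM. In fat body aret stood at 11.2 RPKM in HSD 1 and at 24.5 to 70.8 RPKM in the other libraries.

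All 28 general subunit genes were read in every library, at 22.5 to 90.6 RPKM in brain and 36.0 to 220.4 RPKM in fat body. The median of the 28 was 40.5, 36.9, 37.4, 38.6 and 53.4 RPKM in brain ND libraries 1 to 5 and 40.3, 36.7, 41.4, 43.8 and 43.2 RPKM in brain HSD. In fat body it was 63.2, 82.2, 111, 99.6 and 79.7 RPKM on ND and 111, 107, 123, 124 and 84.7 RPKM on HSD. Every fat body library lay above every brain library, and brain ND 5 stood above the other brain libraries. Within a tissue the genes lay close together, since the highest was 2.23 times the lowest in brain and 2.66 times in fat body. The order of their levels was almost the same on the 2 diets (Spearman's rho 0.99 in brain and 0.97 in fat body over the 28 genes) but differed between the tissues (0.41 on ND and 0.26 on HSD).

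**Figure D1:**
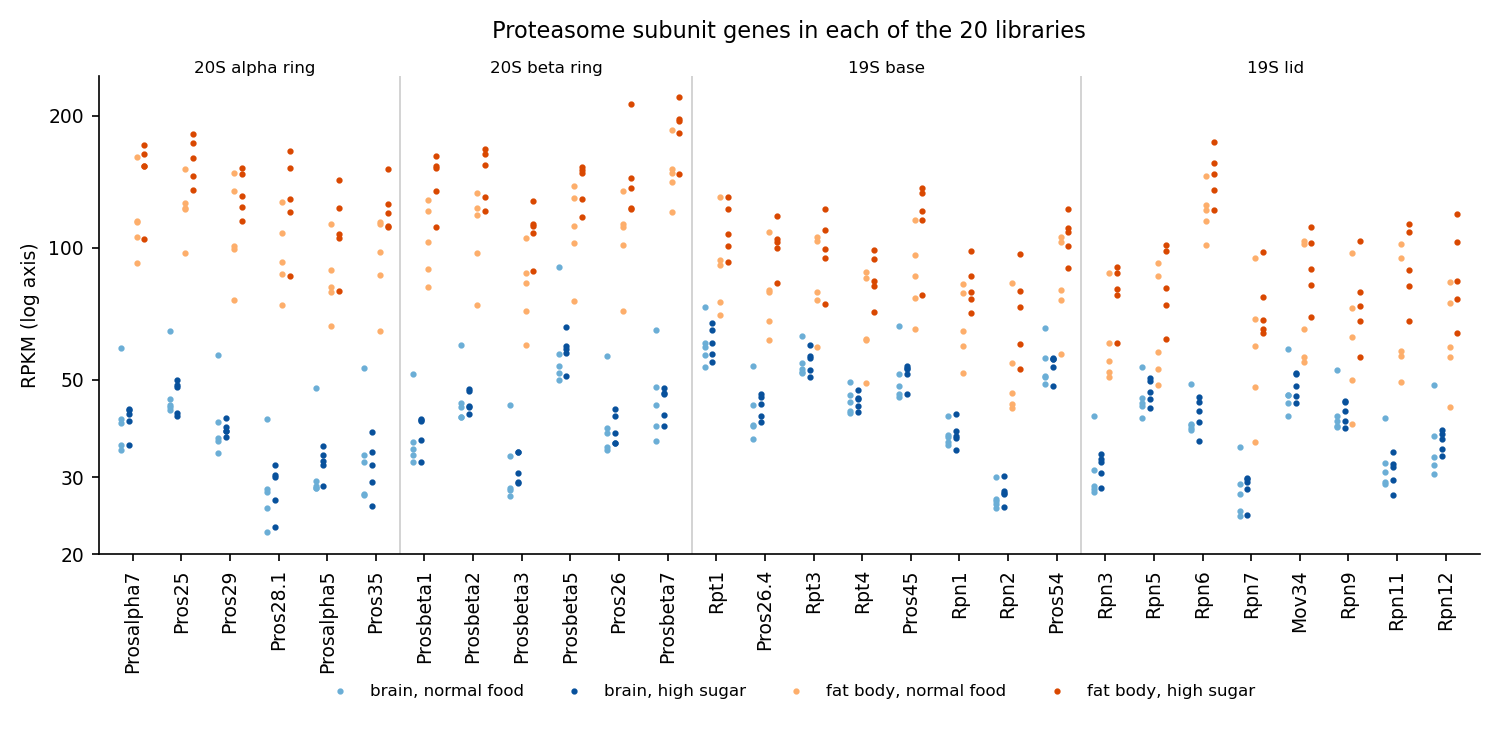
RPKM of the 28 general proteasome subunit genes in each of the 20 libraries (points, log axis), grouped by their place in the complex. All fat body points lie above all brain points of the same diet for the 28 genes on HSD and for 18 of 28 on ND, and the uppermost brain ND point of most genes is library 5.

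Among the alpha ring genes, Pros25 (the alpha 2 subunit) was the highest in both tissues. In brain libraries 1 to 5 it stood at 45.4, 43.3, 43.9, 42.7 and 64.7 RPKM on ND and 41.5, 42.01, 48.3, 50.01 and 48.6 RPKM on HSD. Its fat body values were 97.1, 122, 151, 127 and 123 RPKM on ND and 174, 161, 181, 146 and 136 RPKM on HSD. The tissues did not overlap on either diet, whereas the diets overlapped in both tissues. Pros28.1 (alpha 4), the lowest alpha gene in brain, gave 27.8, 22.5, 25.5, 28.3 and 40.8 RPKM on ND and 26.7, 23.1, 30.3, 32.00 and 29.98 RPKM on HSD. In fat body, where it was not the lowest, it gave 74.03, 87.4, 127, 92.99 and 108 RPKM on ND and 129, 121, 152, 166 and 86.4 RPKM on HSD. It had the largest rise from brain to fat body of all 28 genes. Prosalpha5 was the lowest alpha gene in fat body, at 66.2, 81.4, 113, 88.9 and 79.4 RPKM on ND and 108, 105, 123, 143 and 79.8 RPKM on HSD, after 28.6, 28.4, 28.4, 29.4 and 48.04 RPKM on ND and 32.7, 28.7, 35.3, 32.00 and 33.7 RPKM on HSD in brain. Pros35 (alpha 6) was read at 33.7, 27.4, 27.4, 32.5 and 53.3 RPKM on ND and 29.2, 25.8, 31.99, 37.96 and 34.2 RPKM on HSD in brain. Its fat body values were 64.8, 86.99, 115, 113 and 97.9 RPKM on ND and 120.3, 112, 126, 151 and 112 RPKM on HSD. The brain libraries of both genes were led by ND 5, and neither gene's tissues overlapped. Prosalpha7 and Pros29 (alpha 3) lay between these, at 34.0 to 59.0 RPKM in brain and 76.2 to 172 RPKM in fat body.

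Of the beta ring genes, the 3 with active sites were not read alike. Prosbeta1 gave 36.1, 33.6, 32.5, 34.8 and 51.7 RPKM on ND and 36.6, 32.5, 40.2, 40.7 and 40.5 RPKM on HSD in brain. Fat body libraries held it at 81.5, 103, 129, 121 and 89.7 RPKM on ND and 152, 162, 154, 135 and 112 RPKM on HSD. Its lowest fat body library stood above its highest brain library. Prosbeta2 gave 43.4, 41.2, 41.1, 44.3 and 60.1 RPKM on ND and 43.3, 41.7, 43.7, 47.7 and 47.1 RPKM on HSD in brain. It was read in fat body at 74.2, 97.4, 133, 123 and 119 RPKM on ND and 164, 155, 168, 131 and 122 RPKM on HSD. As with Prosbeta1, ND 1 was its lowest fat body library and brain ND 5 its highest brain library, and the tissues did not overlap. Prosbeta5, the highest 20S gene in brain, gave 57.3, 53.8, 51.9, 50.1 and 90.6 RPKM on ND and 59.8, 50.99, 65.9, 58.8 and 57.6 RPKM on HSD. On the fat body side the values were 75.7, 102, 129.9, 138 and 112 RPKM on ND and 148, 129, 150.5, 153 and 118 RPKM on HSD. Here the tissues overlapped on ND, since brain ND 5 lay above fat body ND 1, and did not overlap on HSD.

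Among the structural beta genes, Prosbeta7 was the highest member in fat body, at 121, 148, 186, 141 and 151 RPKM on ND and 220.4, 183, 197, 195 and 147 RPKM on HSD. In brain it was at no extreme, at 48.2, 36.4, 39.3, 43.9 and 64.8 RPKM on ND and 41.5, 39.2, 46.4, 48.1 and 46.7 RPKM on HSD. The tissues were far apart on both diets. Pros26 (beta 6) was read at 38.9, 34.6, 35.1, 37.9 and 56.7 RPKM on ND and 35.9, 35.9, 37.9, 42.96 and 41.5 RPKM on HSD in brain. The fat body libraries gave 71.9, 101, 135, 113 and 112 RPKM on ND and 137, 124, 144, 213 and 123 RPKM on HSD. The HSD 4 value stood apart from the other 4 of its group, and the tissues did not overlap. Prosbeta3 was the lowest beta gene, at 33.5, 28.4, 27.1, 28.01 and 43.9 RPKM on ND and 29.3, 29.1, 34.3, 34.3 and 30.6 RPKM on HSD in brain. Its fat body values were 59.95, 83.1, 106, 71.7 and 87.6 RPKM on ND and 108, 112, 113, 128 and 88.5 RPKM on HSD. They too were all above those of brain.

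In the 19S base the order was different. Rpt1, an ATPase of the ring, was the highest member in brain, at 60.8, 56.98, 53.5, 59.4 and 73.4 RPKM on ND and 57.2, 54.95, 60.6, 65.2 and 67.6 RPKM on HSD. Its fat body values were 70.3, 91.3, 131, 94.1 and 75.4 RPKM on ND and 123, 108, 131, 101 and 92.7 RPKM on HSD. Fat body ND 1 lay below brain ND 5, so the tissues overlapped on ND but not on HSD. Rpt3, another ATPase, gave 54.7, 52.96, 51.9, 52.1 and 62.97 RPKM on ND and 52.6, 50.7, 60.2, 56.8 and 56.1 RPKM on HSD in brain. Fat body libraries held it at 59.5, 76.1, 104, 106 and 79.3 RPKM on ND and 110.2, 99.5, 123, 94.9 and 74.5 RPKM on HSD. It overlapped in the same way as Rpt1. Pros45 (Rpt6) was the highest base gene in fat body over both diets and on HSD, while Rpt1 was higher on ND. Its values there were 65.2, 86.4, 116, 96.4 and 76.9 RPKM on ND and 121, 116, 134, 137 and 78.1 RPKM on HSD. In brain it was read at 51.7, 48.3, 46.5, 45.6 and 66.5 RPKM on ND and 51.5, 46.4, 53.7, 53.1 and 53.02 RPKM on HSD. Its tissues overlapped on ND through brain ND 5 and fat body ND 1. Pros26.4 (Rpt2) gave 43.9, 39.3, 39.5, 36.6 and 53.8 RPKM on ND and 41.4, 40.2, 44.1, 46.4 and 45.8 RPKM on HSD in brain. It was read in fat body at 61.6, 79.5, 109, 68.1 and 80.1 RPKM on ND and 99.98, 103, 118, 105 and 83.02 RPKM on HSD. Its tissues did not overlap. Rpn2, a scaffold of the base, was the lowest of the 28 genes in both tissues. In brain it stood at 26.7, 26.04, 25.6, 26.5 and 30.01 RPKM on ND and 27.8, 25.7, 27.5, 30.2 and 27.6 RPKM on HSD. On the fat body side the values were 44.2, 54.6, 83.1, 43.1 and 46.7 RPKM on ND and 79.7, 73.2, 96.7, 60.5 and 52.8 RPKM on HSD. Its fat body values were led by ND 3 and HSD 3, and its tissues did not overlap. Rpt4, Rpn1 and Pros54 (Rpn10, a ubiquitin receptor) lay at 34.6 to 65.7 RPKM in brain and 49.1 to 123 RPKM in fat body.

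In the lid, Rpn6 stood above the other lid genes in fat body. It gave 38.8, 38.4, 39.6, 39.6 and 48.98 RPKM on ND and 40.2, 36.3, 42.4, 45.7 and 44.5 RPKM on HSD in brain. In fat body, where it ranked 3 of the 28 on ND and 6 on HSD, it gave 102, 115, 146, 125 and 122 RPKM on ND and 175, 148, 157, 136 and 122 RPKM on HSD. Its lowest fat body library was above its highest brain library by a wide margin. Mov34 (Rpn8, the partner of the deubiquitinase Rpn11) was the highest lid gene in brain, at 46.3, 46.3, 41.5, 44.4 and 58.98 RPKM on ND and 45.99, 44.3, 48.3, 51.8 and 51.6 RPKM on HSD. The fat body libraries gave 54.8, 65.3, 102, 104 and 56.5 RPKM on ND and 89.7, 82.3, 103, 112 and 69.6 RPKM on HSD. Fat body ND 1 and ND 5 were below brain ND 5. Rpn11 itself gave 32.3, 29.3, 28.98, 30.8 and 41.04 RPKM on ND and 29.6, 27.3, 32.2, 34.2 and 31.6 RPKM on HSD in brain. Its fat body values were 49.5, 56.8, 95.1, 102 and 58.3 RPKM on ND and 82.1, 89.1, 114, 109 and 68.2 RPKM on HSD. Its tissues did not overlap. Rpn7 was the lowest lid gene over both diets in each tissue, though Rpn3 was lower in fat body on ND. It stood at 28.96, 24.4, 25.2, 27.5 and 35.3 RPKM on ND and 29.2, 24.6, 28.2, 29.8 and 29.7 RPKM on HSD in brain. Fat body libraries held it at 36.04, 48.2, 68.7, 94.97 and 59.9 RPKM on ND and 65.4, 68.5, 77.4, 97.7 and 64.04 RPKM on HSD. ND 4 and HSD 4 were its highest fat body libraries.

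Among the lid genes, Rpn5 and Rpn9 were the closest between the tissues. Rpn5 was read at 44.2, 40.9, 43.6, 45.5 and 53.5 RPKM on ND and 47.1, 43.1, 45.3, 50.6 and 49.8 RPKM on HSD in brain. It was read in fat body at 48.6, 57.9, 92.5, 86.3 and 53.1 RPKM on ND and 74.1, 80.8, 98.5, 102 and 62.1 RPKM on HSD. The tissues overlapped on ND. Rpn9 gave 41.4, 40.3, 39.1, 39.3 and 52.6 RPKM on ND and 40.4, 38.8, 42.5, 44.6 and 44.7 RPKM on HSD in brain. On the fat body side the values were 39.6, 49.9, 72.8, 97.3 and 62.5 RPKM on ND and 73.7, 68.02, 79.5, 104 and 56.5 RPKM on HSD. Fat body ND 1 and ND 2 were below brain ND 5, and ND 4 and HSD 4 were highest in their groups. Rpn12 gave 37.2, 30.46, 33.4, 32.1 and 48.6 RPKM on ND and 34.7, 33.6, 38.4, 37.6 and 36.7 RPKM on HSD in brain. The fat body libraries gave 43.5, 56.3, 83.4, 74.8 and 59.4 RPKM on ND and 84.2, 76.6, 103, 119 and 63.9 RPKM on HSD. Its ND groups overlapped through fat body ND 1. Rpn3 lay at 27.7 to 41.3 RPKM in brain and 50.7 to 90.6 RPKM in fat body.

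Fat body was compared with brain on each diet, over libraries that the comparisons do not share. All 28 general subunit genes rose in fat body on ND and all 28 on HSD (limma on log2(RPKM + 1), Benjamini-Hochberg adjustment over all genes tested, threshold 0.05). On ND 23.2% of the 9219 genes tested were called higher, and on HSD 27.2% of 9315. The members' median log2 fold change was 0.99 on ND (0.52 for Rpn5 to 1.73 for Pros28.1), where the median over all genes was -0.61. On HSD it was 1.34 (0.79 for Rpn5 to 2.14 for Pros28.1), where the median over all genes was -0.40. All 28 stood higher in every fat body library than in every brain library on HSD, as 22.5% of all genes did, and 18 of 28 on ND, as 19.3% did. The 10 that overlapped on ND were Prosbeta5, Rpt1, Rpt3, Rpt4, Pros45, Pros54, Rpn5, Mov34, Rpn9 and Rpn12. In whole tissue, a difference in the number of cells of a type and a difference in RNA per cell cannot be told apart.

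**Figure D2:**
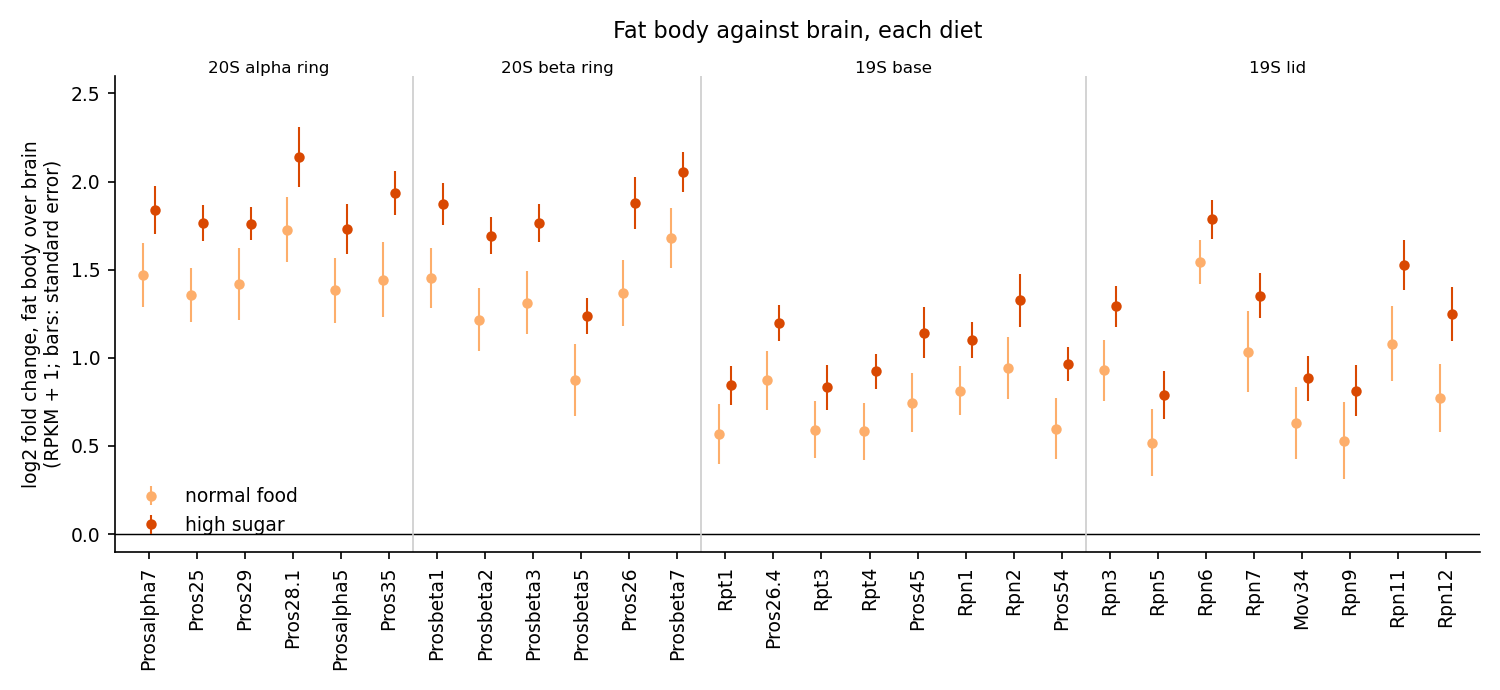
Log2 fold change of fat body over brain for each of the 28 genes on ND and on HSD, on the log2(RPKM + 1) scale, with standard errors from limma. All points are above 0, from 0.52 to 2.14, and most 20S points lie above most 19S points, with Prosbeta5 low among the 20S and Rpn6 high among the 19S.

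The largest differences on ND were those of Pros28.1, with a log2 fold change of 1.73 ± 0.18 (SE, 5 libraries a group, limma adjusted p 5.59e-06), of Prosbeta7 (1.68 ± 0.17) and of Rpn6 (1.54 ± 0.12). On HSD they were those of Pros28.1 (2.14 ± 0.17, limma adjusted p 5.14e-07), Prosbeta7 (2.05 ± 0.11) and Pros35 (1.93 ± 0.12). The smallest on ND were those of Rpn5 (0.52 ± 0.19, limma adjusted p 0.0276), Rpn9 (0.53 ± 0.22, adjusted p 0.0451) and Rpt1 (0.57 ± 0.17, adjusted p 0.0102), and on HSD those of Rpn5 (0.79 ± 0.14), Rpn9 (0.81 ± 0.14) and Rpt3 (0.83 ± 0.13). The calls of Rpn5 and Rpn9 on ND were lost without any of several single libraries: Rpn5 without brain ND 1, 2 or 3 or fat body ND 3 or 4 (adjusted p 0.0547 to 0.063) and Rpn9 without any ND library but brain ND 5 and fat body ND 1 and 2 (0.0727 to 0.0927). Among the active-site genes, Prosbeta5 differed least, by 0.88 ± 0.20 on ND and 1.24 ± 0.10 on HSD. Prosbeta1 differed by 1.45 ± 0.17 and 1.87 ± 0.12, and Prosbeta2 by 1.22 ± 0.18 and 1.69 ± 0.11. Within libraries 1 to 3 alone 23 of 28 were called higher on ND (22.5% of all genes) and 28 of 28 on HSD (26.9%). Within libraries 4 and 5 alone 13 of 28 were called higher on ND (14.4% of all genes) and 22 of 28 on HSD (15%), with the direction the same for all 28.

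Scaling changed the size and not the direction. Set against the median gene of its own library, the median member stood at 2.05 to 2.31 times that gene in 9 brain libraries and at 2.72 times in brain ND 5. For these multiples the median gene was taken over 8910 genes in brain and 8223 in fat body, so the gene sets differ between the tissues. In fat body it stood at 7.55, 9.09, 7.86, 6.55 and 7.16 times the median gene on ND and at 10.1, 7.76, 7.53, 7.81 and 8.25 times on HSD. For the fits each library was set to its median over the genes tested, 9219 on ND and 9315 on HSD. All 28 genes were again called higher in fat body on each diet. Their median log2 fold change was 1.85 on ND (1.39 to 2.59) and 2.00 on HSD (1.45 to 2.80). Over all genes the medians were then 0.18 and 0.20, and 41.8% and 42.2% of genes were called higher. Germline and eggshell markers were also higher in fat body than in brain. The median member's multiple of the median gene was 10.1 in HSD 1, where both marker sums were lowest. It was 7.53 in HSD 3 and 7.16 in ND 5, with eggshell sums of 76.4 and 172 RPKM. In ND 2 and ND 4, with eggshell sums of 6753 and 12479 RPKM, it was 9.09 and 6.55. The part of these markers in the members' levels was not tested.

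The difference between the tissues was larger for the 20S than for the 19S genes. The 12 genes of the core had a median log2 fold change of 1.40 on ND and 1.80 on HSD, and the 16 genes of the cap 0.76 and 1.12. By ring and subcomplex the medians on ND were 1.43 for the alpha ring, 1.34 for the beta ring, 0.67 for the base and 0.85 for the lid. On HSD they were 1.80, 1.82, 1.03 and 1.27. Prosbeta5 was the lowest 20S gene and Rpn6 the highest 19S gene on each diet, the latter above the core median on ND (1.54) and next to it on HSD (1.79). The split was seen within each library as well, where no scaling enters. The ratio of the geometric mean RPKM of the 20S genes to that of the 19S genes was 0.939, 0.893, 0.900, 0.950 and 1.13 in brain ND libraries 1 to 5 and 0.918, 0.912, 0.951, 0.940 and 0.942 in brain HSD. It was 1.46, 1.51, 1.39, 1.32 and 1.61 in fat body ND and 1.53, 1.52, 1.41, 1.53 and 1.53 in fat body HSD. The tissues did not overlap, the diets overlapped in each tissue, and brain ND 5 stood nearest to fat body. Within the core the alpha to beta ratio was also lower in brain (0.833 to 0.891) than in fat body (0.889 to 0.986), with an overlap of brain ND 5 and fat body HSD 5.

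**Figure D3:**
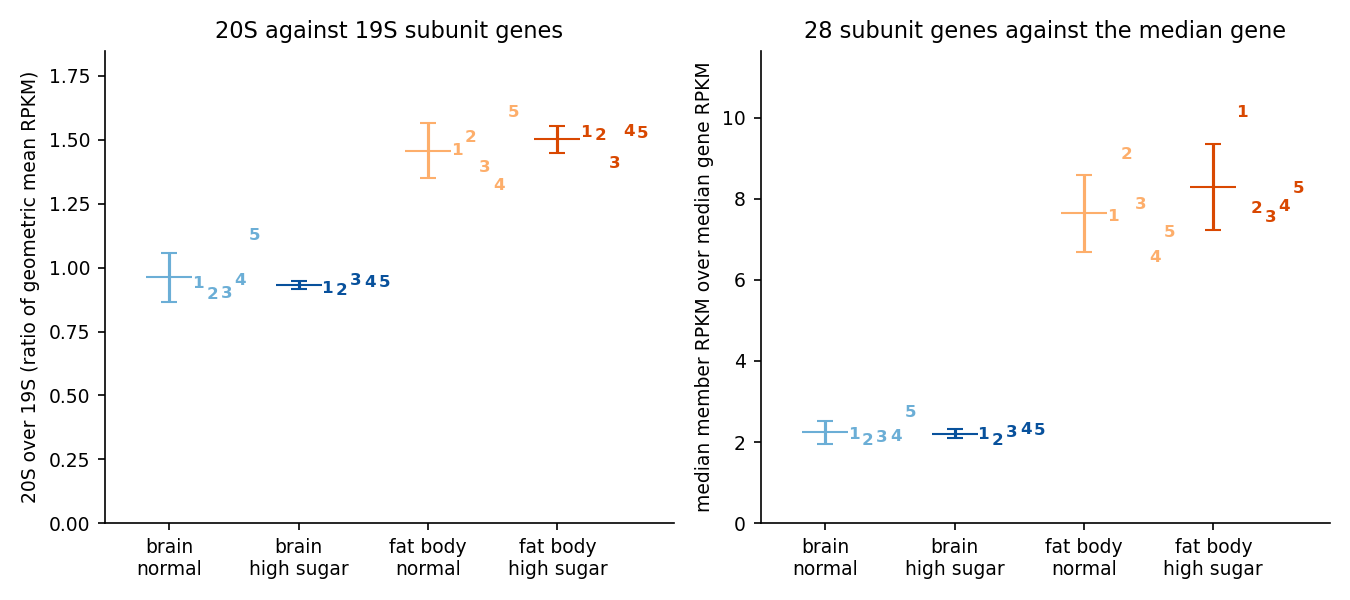
Left, ratio of the geometric mean RPKM of 12 genes of the 20S core to that of 16 genes of the 19S cap in each library. Right, median RPKM of the 28 genes over the median gene of the same library (of 8910 genes in brain and 8223 in fat body). Digits are the library numbers, and the marks are the mean and SD of 5 libraries. The brain libraries lie at 0.893 to 1.13 (left) and 2.05 to 2.72 (right), the fat body libraries at 1.32 to 1.61 and 6.55 to 10.1.

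Transcript length moves with this split. The lengths implied by reads and RPKM were 858 to 1232 bases for the 20S genes (median 1001) and 1055 to 3438 bases for the 19S genes (median 1522), taking the reads on genes as the total. Over all genes tested the fold change fell with length, with a median of -0.21 on ND below 1000 bases and -1.24 from 3000 bases, and of 0.09 and -1.14 on HSD. Between 1000 and 2000 bases the median over all genes was -0.32 on ND and -0.07 on HSD. In that same length range 6 genes of the core had medians of 1.43 and 1.85 and 13 genes of the cap 0.63 and 0.96. The range does not match the sets in length. Those core genes lay at 1013 to 1232 bases and those cap genes at 1055 to 1928 bases, all but Rpn12 (1055) above 1232. Over the 28 members Spearman's rho of fold change with length was -0.55 on ND and -0.63 on HSD, against -0.27 and -0.30 over all genes. Within the 20S genes it was 0.24 and 0.19, and within the 19S genes 0.03 and -0.09. The part of length in the split was not tested.

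High sugar was set against normal food in fat body. All 28 genes had a higher mean on HSD, by a median log2 fold change of 0.36 (0.25 for Rpt3 to 0.49 for Rpn12), but none passed the threshold, and 0% of the 8223 genes tested did. The median over all genes was 0.19, and 76.4% of all genes were higher. At an unadjusted p under 0.05, 10 of 28 members were higher and 0 lower, where 7.77% of all genes were higher at that p. This count ran from 1 (without ND 1, 4.32% of all genes) to 21 (without ND 3, 9.96%) when single libraries were left out. It moved by over 1.5 times without any of ND 1, 2, 3 and 5 and HSD 1, 3, 4 and 5. With the replicate number as a block, which pairs the libraries of a tissue, it was 15 of 28, and 11.3% of all genes. limma-voom on the reads recovered from RPKM also called none of all genes, with 11 members and 7.09% of all genes higher at that unadjusted p.

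The largest of these differences were those of Rpn12 (0.49 ± 0.21 SE, 5 libraries a group, limma adjusted p 0.508), Pros26 (0.47 ± 0.19, adjusted p 0.494) and Prosbeta1 (0.45 ± 0.16, adjusted p 0.433). The smallest were those of Rpt3 (0.25 ± 0.19), Rpn6 (0.27 ± 0.14) and Rpn9 (0.28 ± 0.24). Prosbeta2 differed by 0.45 ± 0.17 and Prosbeta5 by 0.34 ± 0.17. By subcomplex the medians were 0.37 for the alpha ring, 0.45 for the beta ring, 0.35 for the base and 0.33 for the lid. None of the 28 had ND and HSD libraries without overlap, where 1.91% of all genes did. Between libraries of the same number, HSD stood above ND for 28, 28, 27, 26 and 23 of the 28 genes at numbers 1 to 5, where 75.5%, 84.1%, 77.0%, 53.5% and 40.7% of all genes did.

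The difference was smaller on the scale of the median gene. With each library set to its median gene, the 28 genes were still all higher on HSD, but by a median of 0.14 (0.03 for Rpt3 to 0.26 for Rpn12), with 0% of all genes and none of the members called. None of the members was at an unadjusted p under 0.05, where 1.33% of all genes were higher at that p. The median over all genes was then -0.01. Without HSD 1, 21 of 28 were higher on this scale, with a median of 0.06, and without ND 4, 23 of 28, with a median of 0.07. Yolk protein genes, which the fat body makes for the egg, took 25.5%, 22.2%, 18.2%, 10.1% and 12.9% of the reads in fat body ND libraries 1 to 5 and 6.17%, 7.34%, 6.31%, 7.55% and 14.0% in HSD. With RPKM computed outside those genes the members' median was 0.20. In libraries 1 to 3 alone the deposited values gave a median of 0.46, and in libraries 4 and 5 alone 0.20 with 26 of 28 higher. Set to the median gene, these became 0.07 with 25 of 28 higher and 0.23 with 27 of 28 higher. Sums of other markers are given by diet for fat body. The 10 eggshell markers, all found, summed to 113 to 12479 RPKM on ND and 23.7 to 1540.1 RPKM on HSD, with Vm32E at 0 in ND 5 and HSD 4 and Vm26Aa in HSD 4. Gut markers (4 of 5 found) summed to 2.20 to 73.6 RPKM on ND and 17.9 to 213 RPKM on HSD, with lab at 0 in ND 1, ND 4, ND 5 and HSD 4. Cyp4g1, the oenocyte marker found, stood at 7357 to 11114 RPKM on ND and 9792 to 22479.7 RPKM on HSD, and germline markers (8 of 9 found) summed to 179 to 380.5 RPKM on ND and 26.45 to 476 RPKM on HSD. The diets overlapped in all 4, and their part in the members' differences was not tested.

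**Figure D4:**
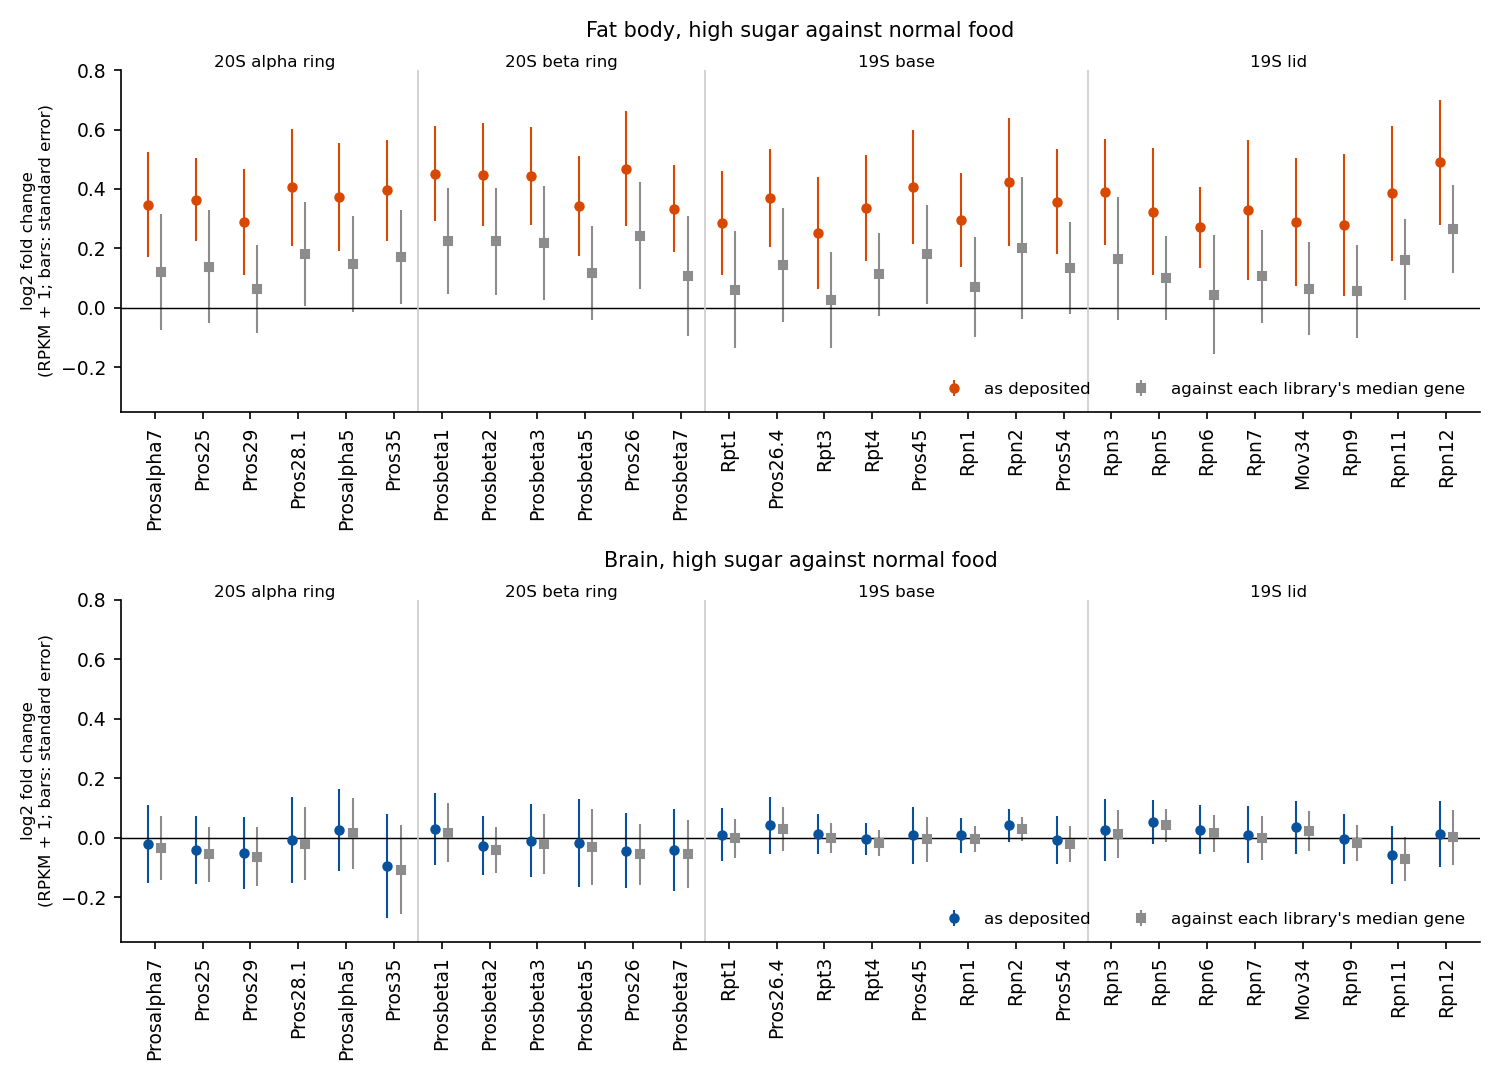
Log2 fold change of HSD over ND for the 28 genes in fat body (top) and brain (bottom), on the log2(RPKM + 1) scale with limma standard errors, as deposited and with each library set to its median gene. In fat body all 28 deposited values lie between 0.25 and 0.49 and all scaled values between 0.03 and 0.26, and in brain both sets lie around 0.

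In brain the diet differences lay on both sides of 0. Of 29 members tested (the 28 and the duplicate Pros28.1A), 14 were higher and 15 lower on HSD, with a median log2 fold change of -0.00 and a range of -0.15 to 0.05. None passed the threshold and none had an unadjusted p under 0.05, while 0% of the 8910 genes tested passed and 0.887% had such a p. None of the 28 had diets without overlap, where 0.157% of all genes did. Between libraries of the same number, HSD stood above ND for 8, 13, 28, 28 and 0 of the 28 genes at numbers 1 to 5, where 46.3%, 46.3%, 62.1%, 65.8% and 48.4% of all genes did. All 28 thus stood higher at numbers 3 and 4 and lower at number 5. limma-voom on the recovered reads also gave 14 higher, with none called and none at that unadjusted p. The lowest values were those of Pros28.1A (-0.15 ± 0.14 SE, 5 libraries a group, limma adjusted p 1.00), Pros35 (-0.10 ± 0.17) and Rpn11 (-0.06 ± 0.10), and the highest those of Rpn5 (0.05 ± 0.07), Pros26.4 (0.04 ± 0.10) and Rpn2 (0.04 ± 0.06). The active-site genes stood at 0.03 ± 0.12 (Prosbeta1), -0.03 ± 0.10 (Prosbeta2) and -0.02 ± 0.15 (Prosbeta5). By subcomplex, 2 of 12 core genes and 12 of 16 cap genes were higher. Against the median gene 9 of 29 were higher, with a median of -0.02 and 0% of all genes called. The comparison rests on brain ND 5, the highest brain library for 26 of the 28 genes. Without it 28 of 29 were higher on HSD, with a median of 0.08 and 1 at an unadjusted p under 0.05, where 4.17% of all genes were higher at that p. In brain ND 5 yolk protein genes took 1.44% of the reads, against 0.0386% to 0.530% in the other brain libraries, and the part of fat body RNA in its values was not tested.

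The diet difference was larger in fat body than in brain for all 28 genes, by a median of 0.37 on the log2 scale (0.24 for Rpt3 to 0.51 for Pros26), where the median over all genes was 0.16. In the test of this interaction none of the 28 and 0% of the 9280 genes tested passed the threshold. At an unadjusted p under 0.05 there were 4 members, Pros26, Prosbeta2, Prosbeta3 and Pros25, all of the core, and 5.77% of all genes were higher at that p. The count ran from 0 (without any of brain ND 5, brain HSD 2 and fat body ND 1, ND 2, HSD 1 and HSD 3) to 18 (without fat body ND 3, 9.55% of all genes). It was 10 with the replicate block (9.87% of all genes) and 7 with limma-voom (6.29%), which called none of all genes. The 3 largest were those of Pros26 (0.51 ± 0.24 SE, limma adjusted p 0.773), Pros35 (0.49 ± 0.25, adjusted p 0.779) and Rpn12 (0.48 ± 0.25, adjusted p 0.779), and that of Prosbeta2 was 0.48 ± 0.21. The 3 smallest were Rpt3 (0.24 ± 0.21), Rpn6 (0.24 ± 0.16) and Mov34 (0.25 ± 0.25). Against the median gene the median was 0.15, with all 28 above 0, 0% of all genes called and none of the members at an unadjusted p under 0.05, where 1.1% of all genes were higher at that p. On that scale 22 of 28 were above 0 without fat body HSD 1, with a median of 0.05, and 26 of 28 without brain ND 5, with a median of 0.07.

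Much of the members' spread was shared within a library. The SD of log2(RPKM) was taken over all libraries of a tissue, both diets together, so it holds any diet difference. Its median over the 28 genes was 0.16 in brain and 0.34 in fat body. Once each library's mean over the 28 was taken away, the medians were 0.07 and 0.15. The spread was then smaller for all 28 genes in fat body and for 25 of 28 in brain, and larger for Rpn1 (0.09 to 0.10), Rpn2 (0.09 to 0.10) and Rpt4 (0.08 to 0.11). Each gene is itself part of the mean that was taken away, which favours a smaller spread. The same was not computed for other genes, so the fall cannot be called particular to the members. In brain Pros35 kept the most spread of its own (0.15) and Rpn3 the least (0.02). The scatter of the 28 genes within a library was taken around each gene's mean over both diets of the tissue. The library's mean over the 28 was taken away first. This scatter was 0.0471 to 0.0772 in 9 brain libraries and 0.153 in brain ND 5. In fat body it was 0.279 in ND 4 and 0.228 in HSD 4, and 0.0951 to 0.134 in the other 8 libraries. ND 4 and HSD 4 were also among the 3 libraries with few genes at 1 to 3 reads, and the only libraries in which the lid genes stood above the base genes, with a lid to base ratio of 1.09 and 1.12 against 0.789 to 0.920 in the others.

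The 13 duplicate genes were low or unread. Pros28.1A (a copy of the alpha 4 gene, now named Prosalpha4T1) was read in all 10 brain libraries, at 1.02, 1.57, 0.98, 1.38 and 0.942 RPKM on ND and 1.06, 1.48, 0.608, 0.892 and 0.845 RPKM on HSD, and in none of 10 fat body libraries. Prosalpha3T, a copy of the alpha 3 gene, gave 0.332, 0.494, 0.304, 0.384 and 0.261 RPKM on ND and 0.373, 0.293, 0.288, 0.259 and 0.406 RPKM on HSD in brain and likewise no read in fat body. Over the libraries of a group, 3 reads would give 0.0275 RPKM (ND) or 0.0422 RPKM (HSD) of Pros28.1A in fat body, so its mean was at least 42.9-fold lower there on ND and at least 23.2-fold lower on HSD. For Prosalpha3T the bounds were 18.9-fold and 11.2-fold. Without ND 4, ND 5 and HSD 4, which held few genes at such depths, the bounds were 26.2-fold and 19.8-fold for Pros28.1A and 11.5-fold and 9.62-fold for Prosalpha3T. They cover counting error only.

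Rpt3R, a copy of the Rpt3 ATPase gene, was read in brain at 0.908, 0.738, 0.871, 1.05 and 0.844 RPKM on ND and 1.05, 0.637, 0.78, 1.23 and 0.914 RPKM on HSD. The values in fat body were 0, 0.0916, 0.302, 0 and 0.139 RPKM on ND and 0.132, 0.0657, 0.0426, 0 and 0.181 RPKM on HSD. Every brain library was above every fat body library, while Rpt3 itself was called higher in fat body on both diets. Rpt6R, a copy of the Rpt6 ATPase gene, was read at 0.0955, 0.111, 0.156, 0.147 and 0.0193 RPKM on ND and 0.112, 0.151, 0.153, 0.124 and 0.179 RPKM on HSD in brain and at 0.173, 0.225, 0.527, 0 and 0 RPKM on ND and 0.303, 0.129, 0.251, 0 and 0.118 RPKM on HSD in fat body, with overlap. Zeros in fat body fell in ND 4, ND 5 and HSD 4, the libraries with few genes at 1 to 3 reads. Without them the ND groups did not overlap, with fat body higher, and the HSD groups still did. With no filter on low values, Pros28.1A, Prosalpha3T and Rpt3R fell in fat body on both diets (limma adjusted p under the threshold), whereas Rpt6R did not pass. In that fit 44.8% of all genes were called lower on ND and 40.2% on HSD. In that fit Pros28.1B also fell on ND (adjusted p 0.0435) and Prosbeta4R1 on HSD (0.035), each from at most 2 reads in any library.

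**Figure D5:**
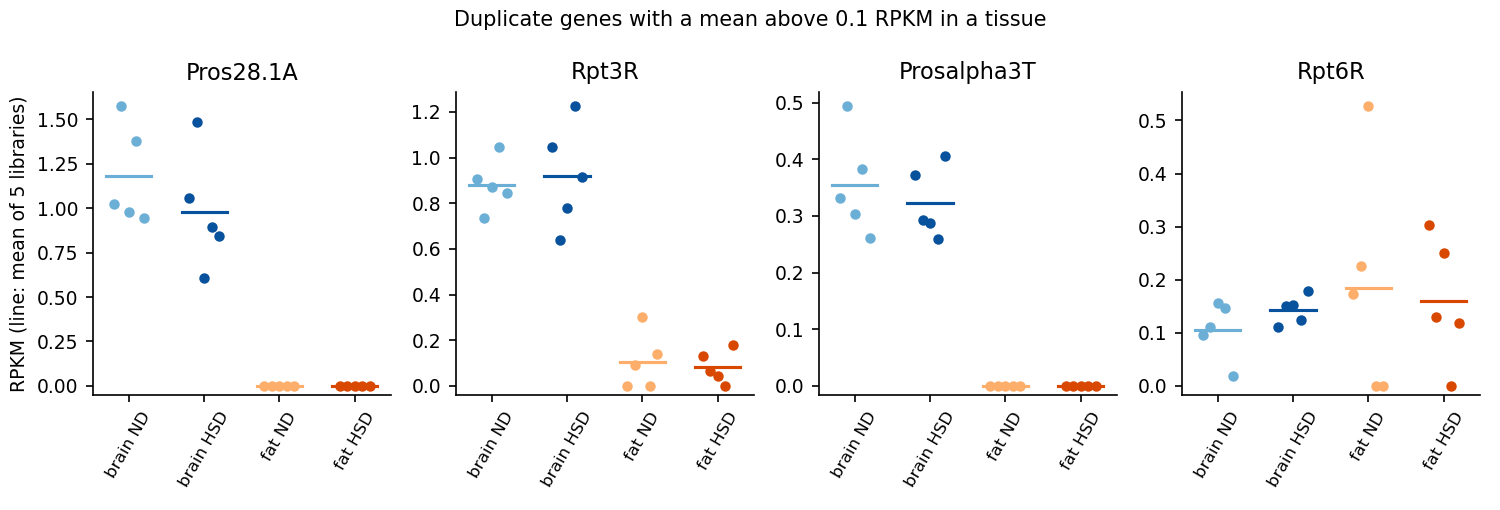
RPKM of 4 duplicate genes in each library (points) with the mean of 5 libraries (lines). Pros28.1A and Prosalpha3T are read in all brain libraries and in no fat body library, Rpt3R is lower in fat body than in brain, and the Rpt6R groups overlap, with fat body values of 0 in ND 4, ND 5 and HSD 4.

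The remaining duplicates hold few reads. Prosbeta2R1 had 15 reads over 10 brain libraries and 9 over the fat body libraries, at most 0.305 RPKM. Prosbeta2R2 had 16 and 4 reads, at most 0.103 RPKM, and Rpt4R 6 and 2 reads, at most 0.0733 RPKM. Pros28.1B (9 reads), Prosbeta4R1 (8), Prosbeta4R2 (2), Rpn12R (2) and Prosbeta5R (1) had reads in brain alone. Prosalpha6T had no read in any library. Testis and accessory gland markers, 8 of 9 found, summed to at most 0.673 RPKM in any library. Since uniquely mapped reads were kept, reads shared by near-identical copies would be lost, and the values of such genes are uncertain. The 2 dropped entries named Prosalpha1 were at 0 in 33 of 40 values and reached 0.265 RPKM, so the alpha 1 subunit is not described here.

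Subunits that the annotation listed under other symbols were followed from a separate list. Tbp-1 (the Rpt5 ATPase), CG13349 (the ubiquitin receptor Rpn13), CG13779 (Sem1) and CG17331 (beta 4) all rose in fat body on each diet. Their log2 fold changes on ND were 0.87, 0.92, 0.77 and 1.44, and on HSD 1.18, 1.34, 1.16 and 1.98. None of the 4 was called between diets in either tissue.

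Of the 19 genes found from a list of assembly factors, regulators and partners, 7 were called higher and 5 lower in fat body on ND, and 11 higher and 3 lower on HSD, with median log2 fold changes of 0.19 and 0.58. Over all genes 23.2% were called higher and 51.6% lower on ND, and 27.2% and 47.3% on HSD. Those rising on both diets included cnc (1.31 and 1.33), which can drive subunit genes, TER94 (1.32 and 1.52), the segregase that delivers substrates, and the ubiquitin-ribosome fusion genes RpL40 (1.59 and 2.08) and RpS27A (1.77 and 2.13). Keap1, which restrains Cap'n'collar, fell on both (-0.81 and -0.33), as did the shuttle gene Rad23 (-0.81 and -0.58) and the polyubiquitin gene Ubi-p5E (-0.35 and -0.40). The regulator gene maf-S was called lower on ND (-0.45, limma adjusted p 0.0173) and did not pass on HSD (-0.30). The part of cnc, Keap1 and maf-S in the members' levels was not tested. With the replicate block the calls of Keap1 on HSD (limma adjusted p 0.0883) and of Ubi-p5E on ND (0.0691) were lost, and Ubi-p63E, another polyubiquitin gene, passed on ND (0.0357). In a comparison of tissues this block joins brain and fat body libraries of the same number, whose deviations had r of -0.23 to 0.15. Against the median gene 16 of the 19 were called higher on ND and 15 on HSD (41.8% and 42.2% of all genes) and none lower (33.1% and 33.4%), so these falls do not hold on that scale. The core chaperone Pomp rose on HSD (0.58, limma adjusted p 0.000607) but did not pass on ND (0.17). None of the 19 was called between diets. In fat body the related genes with the smallest p were RpL40 (0.42, limma adjusted p 0.236), CG13349 (0.41, adjusted p 0.434) and p47 (0.48, adjusted p 0.449), the last an adaptor of TER94.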

How the data were processed

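Poly(A) RNA was sequenced from 20 libraries. The deposited tables give RPKM per gene, computed by the authors from uniquely mapped reads, per the labels' protocols. TopHat and the genome build dm3 are named in the submitters' processing notes. Of 15080 entries, symbols in several rows (188 symbols, 1107 entries) and 1 row named differently between tissues were left out, which left 13972 genes. Depth was not given; it was recovered from the steps of the low values, and 99.99% of values were whole to within 0.01 read. Those reads served for read totals and the 3-read floor, which covers counting error only.

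Genes with a mean of at least 1 RPKM in the libraries compared were fitted as log2(RPKM + 1) with limma 3.58.1 (R 4.3.3, trend on), with Benjamini-Hochberg adjustment at 0.05. Fold changes on this scale understate those of low genes. Each comparison used its own groups, and the interaction all 4. The fit was tested on simulated data with planted changes larger than the members' diet differences and no shifts shared within a library. That test does not cover differences of the diet's size. Python 3.11.15, numpy 2.4.6 and pandas 2.3.3 did the rest. Library values are given for the active-site subunits, the 3 largest and 3 smallest differences in each comparison, the highest and lowest level of each subcomplex in each tissue, and duplicates with more than a few reads; the related genes come from 2 lists. The members and lists were chosen with earlier results of these data known, and CG17331 was added after seeing the data. Deviations of same-numbered libraries of the 2 diets had r of 0.30 to 0.66 in brain and 0.13 to 0.65 in fat body. The numbers were taken to pair diets within a tissue, though the labels give no source for this. No r is given for libraries of different numbers, so pairing by number was not tested. On the first principal component of brain, ND 4 (11.9) lay next to HSD 5 (12.8) and ND 5 (39.6) next to HSD 4 (38.8). The remaining brain libraries lay at -21.9 to -15.1. On that of fat body, ND 2 (-38.2) and HSD 2 (5.1) lay apart, and the other same-numbered libraries lay closer. The main fits did not use the pairing. Between the tissues, same-numbered libraries of a diet had r of -0.23 to 0.15, and pairing of the tissues by number was not tested either. Alternatives were other scalings, pseudocounts and filters, the replicate block, subsets of libraries and leaving out each library. Sequences of the members were not analysed here.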

Additional observations from a re-analysis of the deposited data

Results flagged for a closer look

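The 5 libraries of a group were searched for a library far from the other 4, in 100 groups of values that covered 22 members and the member summaries. The gap passed the 95% critical value in 22 groups, 16 of them through brain ND 5; chance gives about 1 in 20 groups, and the members share their libraries.

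In brain ND 5 the high values were those of the alpha ring genes Pros25 (64.7 RPKM), Pros35 (53.3) and Prosalpha5 (48.0), and of the beta ring genes Prosbeta1 (51.7), Prosbeta2 (60.1), Prosbeta5 (90.6) and Pros26 (56.7). Among the cap genes they were those of Rpt3 (63 RPKM), Rpn2 (30), Rpn6 (49.0), Rpn9 (52.6), Rpn11 (41.0) and Mov34 (59.0). The same library also stood apart in its 20S to 19S ratio (1.13), its median member over the median gene (2.72) and the scatter of its members (0.153 on the log2 scale).

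In fat body, Pros26 was high in HSD 4 (213 RPKM) and Rpn2 in ND 3 (83.1 RPKM). HSD 3 had a low 20S to 19S ratio (1.41), and HSD 1 a high median member over the median gene (10.1). The scatter of the members was high in ND 4 (0.279) and HSD 4 (0.228).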

How the results depend on the processing

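The rise of all 28 general subunit genes in fat body kept its direction under each alternative run. The members' median log2 fold change (0.99 on ND, 1.34 on HSD) was larger under other scalings. On ND and HSD it was 1.85 and 2.00 against the median gene, with or without the replicate block, 1.45 and 1.62 with median-ratio scaling and 1.61 and 1.76 with quantile normalization. Against the median gene it was 2.06 and 2.11 in libraries 1 to 3, 1.72 and 2.04 in libraries 4 and 5, and 2.00 and 2.06 without fat body ND 4, ND 5 and HSD 4. Outside the yolk protein genes it was 1.26 on ND. In libraries 1 to 3 it was 1.51 on HSD, and with no filter, which adds duplicates, 1.17. In libraries 4 and 5, which hold fewer samples, 13 members were called on ND, and 4277 genes in all on ND (4216 against the median gene) and 4613 on HSD. Without single libraries, over both scalings, the median was 0.89 to 1.93 on ND and 1.29 to 2.06 on HSD.

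The diet difference in fat body had no member called under any alternative. Over all genes 16 were called in libraries 1 to 3, and 0 to 19 without single libraries. At the median-gene scale the members' median was 0.07 in libraries 1 to 3 and 0.06 without fat body ND 4, ND 5 and HSD 4, and it was 0.06 to 0.46 without single libraries. In libraries 4 and 5 Rpn9 stood at -0.02 and Rpt3 at -0.12 (-0.10 against the median gene). Without single libraries Rpn6 ran from -0.09 to 0.34, Rpn9 from -0.01 to 0.44 and Rpt3 from -0.08 to 0.35.

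In brain the signs were not stable. Prosbeta1 was at -0.06 in libraries 4 and 5 (-0.08 against the median gene), Prosbeta2 at 0.03 (0.02) and Prosbeta5 at 0.11 (0.09) in libraries 1 to 3. Without single libraries Prosbeta1 ran from -0.02 to 0.15, Prosbeta2 from -0.07 to 0.07, Prosbeta5 from -0.08 to 0.13, Pros26.4 from -0.01 to 0.13, Pros35 from -0.17 to 0.07 and Rpn11 from -0.10 to 0.03.

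For the interaction 277 genes were called in libraries 1 to 3 and 23 without fat body ND 4, ND 5 and HSD 4 (5 against the median gene), none of them a member. Against the median gene the members' median was 0.06 and 0.10 in those settings, with Mov34 at -0.08 and -0.06. In libraries 4 and 5 Rpt3 was at -0.10 (-0.08). Without single libraries the median was 0.05 to 0.46, Mov34 -0.05 to 0.38, Rpn6 -0.11 to 0.31 and Rpt3 -0.09 to 0.34.

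With the replicate block no member was called between diets and the medians were as without it (0.36 in fat body). Among the members it ended 1 call between tissues, that of Rpn9 on ND (adjusted p 0.057 with limma), and among the related genes it ended those of Keap1 on HSD and Ubi-p5E on ND and added that of Ubi-p63E on ND. Between tissues the block joins brain and fat body libraries of the same number, for which no pairing was shown. These changes are therefore not read as a test of the calls. The yolk-free values, and median-gene scaling combined with a block, a subset or a left-out library, were chosen after seeing the data. The cause of these changes was not tested. Depth limits the duplicates, most of which hold a few reads.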
